A study of Mus musculus with 4 samples.

Results

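Protein kinase A (PKA) and the enzymes that break down its activator, cyclic AMP (cAMP), were followed through 10 genes in tumor associated macrophages (TAMs). The genes were chosen by function, as subunits of PKA and enzymes that hydrolyze cAMP. They encode the catalytic subunits Prkaca and Prkacb, the regulatory subunits Prkar1a, Prkar2a and Prkar2b, and the phosphodiesterases Pde4a, Pde4b, Pde4d, Pde3b and Pde7a. All 10 were found among the 54146 genes listed and among the 14688 that had enough counts to be tested. TAMs were sorted by FACS as live CD11b+F4/80+ cells from the CD45+ fraction of MCA205 tumors, which model fibrosarcoma in mice, and sequenced after enrichment of polyA RNA. The tumors grew under the skin of female mice aged 8 to 16 weeks after injection of MCA205 cells. The 2 control libraries are labelled vehicle, which the labels do not describe further, and the 2 propranolol libraries came from mice given 0.5 g/L of propranolol, a nonselective blocker of beta-adrenergic receptors (ADRBs), in the drinking water from the day of injection. The methods keep C57BL/6 mice as the immune competent stock, no allele is named for either group, and the day of sorting and the number of mice per library are not given in the sources used here. The paper calls the libraries of a group biological replicates, and with 2 per group the spread rests on few samples. Counts added up to 13798249 and 23018142 in control replicates 1 and 2 and to 39818103 and 16424081 in propranolol replicates 1 and 2. The 10 genes had between 106 and 12204 counts in a library.

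ADRBs couple to the stimulatory G protein, which activates adenylyl cyclases, and the cAMP they make binds the regulatory subunits of PKA and frees its catalytic subunits. The freed kinase phosphorylates proteins in the cytoplasm and, in the nucleus, the transcription factor CREB, which binds the cAMP response element, TGACGTCA. Phosphodiesterases end the signal by hydrolyzing cAMP, and in macrophages and other leukocytes PDE4 enzymes are known as targets of anti-inflammatory drugs. The comparison asks how blocking the receptor at the top of this cascade left the transcripts of its kinase and of the enzymes that end its signal.

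Since CREB is a target of PKA, the 250 bases before the RefSeq start sites of the genes (GRCm38.p6) were searched for TGACGTCA and for its shorter core TGACG on either strand, which reads CGTCA on the other. RefSeq windows were matched for 8 of the 10 genes, with 22 windows in all. Pde3b and Pde7a had none. TGACGTCA was found in 1 window, of Prkar1a, and in 1.55% of all 32851 windows. TGACG was found in 7 windows of 5 genes, and in 17.8% of all windows. The Prkar1a windows 109650612-109650861 and 109650699-109650948 overlap and hold 1 core in common, 100 and 187 bases before their start sites. Windows of a gene are thus not independent. The window of Prkar1a with the full element and the window of Prkaca with the most cores among the other genes follow, both on the plus strand, with every TGACG or CGTCA in capitals.
Prkar1a, chr11:109650699-109650948: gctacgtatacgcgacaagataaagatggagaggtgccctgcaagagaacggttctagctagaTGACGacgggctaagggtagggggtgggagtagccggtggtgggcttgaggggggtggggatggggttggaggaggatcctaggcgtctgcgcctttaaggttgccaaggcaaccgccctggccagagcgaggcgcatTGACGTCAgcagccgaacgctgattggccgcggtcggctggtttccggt
Prkaca, chr8:83972728-83972977: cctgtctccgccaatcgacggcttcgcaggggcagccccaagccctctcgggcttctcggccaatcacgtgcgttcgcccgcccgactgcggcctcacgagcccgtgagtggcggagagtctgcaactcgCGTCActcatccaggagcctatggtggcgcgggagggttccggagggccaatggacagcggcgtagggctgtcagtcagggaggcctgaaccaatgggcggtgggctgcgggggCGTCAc
In Prkar1a the full element begins 49 bases before the start site, where cores on both strands overlap, and a further core lies 187 bases before it. In Prkaca the cores lie 120 and 6 bases before the start site. These matches describe the letters of the sequence only.

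Of the 10 genes, 1 was changed by propranolol, Pde3b, which was lower, where changed means an adjusted p under 0.05 and more than 1.5-fold. This share of 1 in 10 stands beside 27.8% of all genes tested (12.2% higher and 15.6% lower). With no fold threshold 2 passed, Pde3b and Pde7a, both lower, beside 42.2% of all genes tested (20.4% lower). The test was the edgeR quasi-likelihood test with Benjamini-Hochberg adjustment over all tested genes, and values are CPM, counts scaled to the TMM-normalized size of the library, as mean ± SD with n = 2 libraries. None of the 5 PKA subunits was changed. The median log2 fold change of the 10 genes was -0.24, beside -0.02 for all tested genes. In 6 of the 10 genes both propranolol libraries lay below both control libraries, which held for 36.9% of all tested genes, while the groups did not overlap, in either direction, in 72.6% of them.

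**Figure D1:**
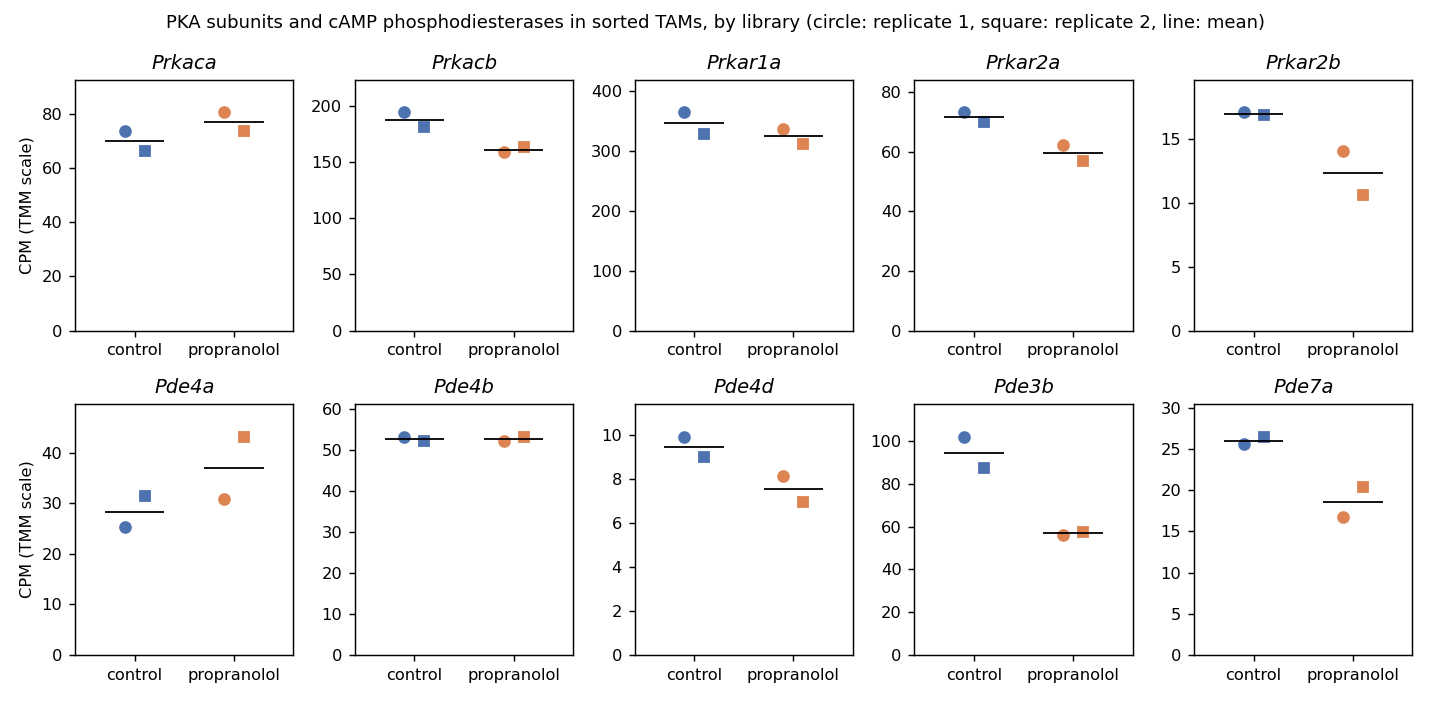
CPM on the TMM scale (y axis, from 0) of the 10 genes in each library, by group (x axis). Circles are replicate 1, squares are replicate 2 and lines are group means. The groups lie furthest apart for Pde3b, at 102 and 87.2 CPM in control and 56.3 and 57.6 CPM in propranolol libraries, and coincide for Pde4b.

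Prkaca (GRCm38 chromosome 8, 83972993 to 83996443, plus strand) encodes the catalytic subunit alpha, found in most tissues. It was counted at 73.7 and 66.2 CPM in control and at 80.5 and 73.5 CPM in propranolol libraries. The ranges of the groups overlapped. Means were 70.0 ± 5.27 and 77.0 ± 4.94 CPM, a log2 fold change of 0.14 ± 0.11 (SE) with an edgeR adjusted p of 0.332. Prkacb (chromosome 3, 146729574 to 146812990, minus strand) encodes the catalytic subunit beta. It was at 194 and 181 CPM in control and 159 and 163 CPM in propranolol libraries, with no overlap. The log2 fold change was -0.22 ± 0.10 (adjusted p 0.0868, and 0.0346 with the replicate number as a block and 0.0386 with upper-quartile in place of TMM factors), and its 95% interval, in fold, ran from 0.738 to 0.994.

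Prkar1a (chromosome 11, 109649405 to 109669656, plus strand) encodes the regulatory subunit I alpha and was the most abundant of the 10 genes. It was at 364 and 328 CPM in control and 336 and 312 CPM in propranolol libraries, and the groups overlapped. The log2 fold change was -0.09 ± 0.10 (adjusted p 0.474). Prkar2a (chromosome 9, 108689314 to 108750436, plus strand) encodes the regulatory subunit II alpha, which A-kinase anchoring proteins hold at membranes and the cytoskeleton. Its control libraries stood at 73.1 and 69.9 CPM and its propranolol libraries at 62.1 and 56.8 CPM. The groups did not overlap, but the log2 fold change of -0.26 ± 0.11 did not pass the test (adjusted p 0.0752), though it did with the replicate block (0.0307), with upper-quartile factors (0.0325) and with a stricter low-count filter (0.0459). Prkar2b (chromosome 12, 31958476 to 32061296, minus strand) encodes the regulatory subunit II beta, known best from brain and fat. It was at 17.1 and 16.9 CPM in control and at 14.1 and 10.6 CPM in propranolol libraries. The control libraries were close together and the propranolol libraries were apart. The log2 fold change was -0.45 ± 0.18 (adjusted p 0.0744, and 0.0419 with the replicate block and 0.0446 with upper-quartile factors). Without propranolol replicate 1 it was -0.67 and counted as changed (adjusted p 0.0185), and without propranolol replicate 2 it was -0.24 (adjusted p 0.406).

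For the PKA subunits the count of 0 changed genes was the same by DESeq2 and by limma-voom. At an unadjusted p under 0.05 there were 3 of 5 subunits by edgeR, 0 by DESeq2 and 3 by limma-voom, beside 50.5%, 45.5% and 50.8% of all tested genes. The 95% interval of the fold lay within 1.5-fold in either direction for 4 of the subunits, Prkaca (0.93 to 1.31), Prkacb (0.738 to 0.994), Prkar1a (0.804 to 1.09) and Prkar2a (0.705 to 0.985). The interval of Prkar2b, 0.554 to 0.974, reached past it.

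Pde4a (chromosome 9, 21165714 to 21213248, plus strand), Pde4b (chromosome 4, 102087543 to 102607259, plus strand) and Pde4d (chromosome 13, 108449948 to 109953461, plus strand) encode cAMP-specific PDE4 enzymes. Pde4b, the form that lipopolysaccharide is known to induce in macrophages, was at 53.2 and 52.2 CPM in control and at 52.2 and 53.3 CPM in propranolol libraries. The 4 libraries were nearly equal. Means were 52.7 ± 0.697 and 52.8 ± 0.764 CPM, the adjusted p was 0.993, and the 95% interval of the fold was 0.847 to 1.18. Pde4a was at 25.4 and 31.4 CPM in control and at 30.9 and 43.2 CPM in propranolol libraries. Propranolol replicate 2 stood above the other 3 libraries, and the groups overlapped. The log2 fold change of 0.36 ± 0.18 was the highest of the 10 genes and did not pass (adjusted p 0.123). It did pass, below 1.5-fold, with the replicate block (adjusted p 0.0232) and with no low-count filter (0.0184). Without propranolol replicate 1 it was 0.60 (adjusted p 0.00369) and counted as changed, and without propranolol replicate 2 it was 0.14 (adjusted p 0.532). Without control replicate 2 it was 0.55 (adjusted p 0.0207), below the fold threshold. Pde4d, with the fewest counts of the 10 genes, was at 9.91 and 8.97 CPM in control and at 8.11 and 6.94 CPM in propranolol libraries. The groups did not overlap. The log2 fold change was -0.32 ± 0.21 (adjusted p 0.260), with an interval of 0.58 to 1.11 in fold, which reaches past 1.5-fold lower.

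Pde3b (chromosome 7, 114415281 to 114539251, plus strand) encodes a cAMP phosphodiesterase that cGMP inhibits, known for its role in insulin action on fat cells. It was at 102 and 87.2 CPM in control and at 56.3 and 57.6 CPM in propranolol libraries. Both propranolol libraries were below both control libraries, by more than replicates of a group differed. Means were 94.6 ± 10.5 and 56.9 ± 0.895 CPM. The fitted level was 1.66-fold lower, a log2 fold change of -0.73 ± 0.11 with an adjusted p of 0.000844 and a 95% interval of 0.506 to 0.718 in fold. Without control replicate 1 it was 1.47-fold lower (adjusted p 0.00439), which is short of the fold threshold. Pde7a (chromosome 3, 19223108 to 19311322, minus strand) encodes a cAMP-specific phosphodiesterase with high affinity, known from T cells. It was at 25.6 and 26.5 CPM in control and at 16.7 and 20.4 CPM in propranolol libraries. The groups did not overlap. The level was 1.42-fold lower (log2 fold change -0.50 ± 0.15, adjusted p 0.0217), below the fold threshold. The adjusted p was 0.0712 without control replicate 1, 0.0731 without control replicate 2 and 0.111 without propranolol replicate 1. Without propranolol replicate 2 Pde7a counted as changed, at 1.53-fold (adjusted p 0.00694). Of its exon bases 48 (0.62%) are shared with the antisense gene Gm16093, and no other of the 10 genes shares exon bases with another gene in GENCODE M21.

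Across all tested genes, fold changes went up with GC content. In 10 groups of genes by the GC content of the longest transcript, the median fold change on the log2 scale was -0.94 in the lowest and 0.46 in the highest. The group of 43.78% to 45.8% GC held Prkacb, Prkar1a, Prkar2b, Pde3b and Pde7a and had a median of -0.33. Of these, Pde3b (44.0% GC), Pde7a (43.9%) and Prkar2b (44.1%) lay below that median and Prkacb (45.4%) and Prkar1a (45.7%) above it. Pde4a, at 57.2% GC, was in a group with a median of 0.47, and Prkaca, at 54.9%, in one with a median of 0.37. Both had smaller fold changes than the median of their groups. Pde4d (-0.32, at 49.8% GC) lay below its group's median of 0.12, and Prkar2a (-0.26, at 48.3%) below one of -0.01. Pde4b (0.00, at 45.9%) lay above one of -0.17.

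**Figure D2:**
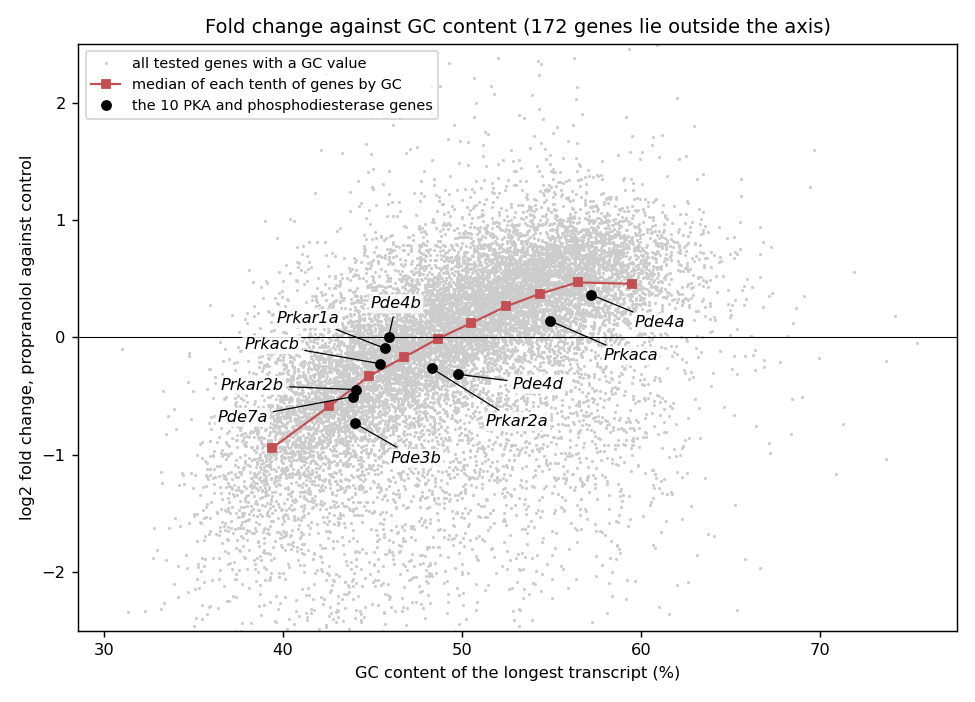
log2 fold change of propranolol against control (y axis) and GC content of the longest transcript in percent (x axis). Grey points are tested genes, red squares are medians of 10 groups of genes by GC content, and black points are the 10 PKA and phosphodiesterase genes. Pde3b lies below the red line at 44.0% GC and Pde4a, the highest of the 10 genes, lies just below it at 57.2% GC.

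When this trend was removed from each library, 0 of the 10 genes were changed and 0 passed the edgeR test, beside 12.6% and 24.1% of all tested genes. Pde3b then had a log2 fold change of -0.26 (adjusted p 0.113) and Pde7a one of -0.04 (adjusted p 0.897). The unadjusted 95% interval of the log2 fold change of Pde3b ran from -0.51 to -0.02. The correction moved the median of all genes from -0.02 to 0.09, and relative to that median Pde3b was at -0.35, Pde4d at -0.39, Prkar1a at 0.15 and Pde4b at 0.23. Pde4b came closest to passing, with a log2 fold change of 0.32 (adjusted p 0.0503). It passed below 1.5-fold when length was removed too (adjusted p 0.0382) or the replicate block was added (0.0257), and with the block Prkar1a passed as well (0.0314). The sign of Prkaca, Prkacb and Prkar1a turned with the correction, to -0.14, 0.13 and 0.24, and Prkar2b came to 0.00. Whether GC content itself accounts for the lower Pde3b was not tested.

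**Figure D3:**
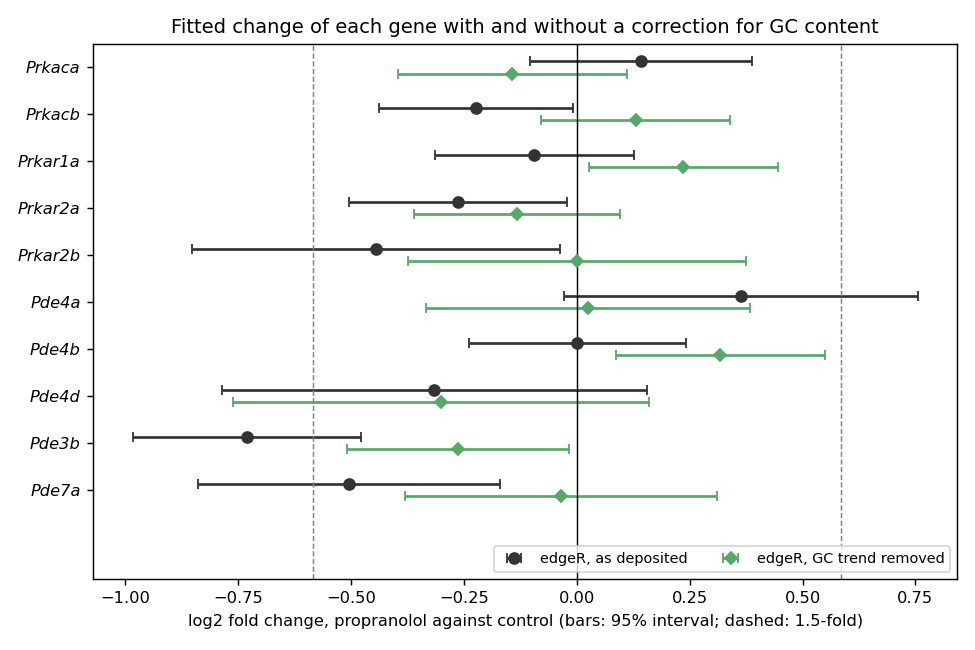
log2 fold change of propranolol against control (x axis) of each gene (y axis) as deposited (black circles) and with the GC trend removed (green diamonds), with unadjusted 95% intervals as bars and dashed lines at 1.5-fold. As deposited, Pde3b at -0.73 is the only gene past the lower dashed line, and with the trend removed all 10 estimates lie between the dashed lines.

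Genes were compared with each other within a library as TPM, which scales counts by the summed exon length of the gene. TPM carries no TMM factors here, so a difference in TPM between groups does not give the direction of change. Prkaca, for example, had a lower mean TPM in propranolol libraries, but its mean CPM was 70.0 in control and 77.0 in propranolol libraries. In control libraries the mean order was Prkar1a (266 TPM), Prkaca (93.3), Prkacb (71.1), Prkar2a (37.2), Pde3b (34.4), Pde4b (16.6), Prkar2b (15.4), Pde4a (12.4), Pde7a (11.2) and Pde4d (2.61). Only Pde4a and Pde7a overlapped with their neighbor in that order. In propranolol libraries the order of mean TPM ran through Prkar1a (211), Prkaca (87.1), Prkacb (51.7), Prkar2a (26.2), Pde3b (17.6), Pde4b (14.1), Pde4a (13.7), Prkar2b (9.49), Pde7a (6.74) and Pde4d (1.76). Pde4a stood below Prkar2b in the control order and above it in the propranolol order, and Pde4b and Pde4a overlapped. The order depends on the length used. By the longest transcript Prkacb, at 112 TPM in control and 80.3 TPM in propranolol libraries, stood above Prkaca, at 79.3 and 73.3 TPM, and Pde4a, at 15.8 and 17.3 TPM, stood above Prkar2b in both groups.

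Prkacb took 42.8% and 43.7% of the TPM of the 2 catalytic subunits in control libraries and 35.9% and 38.6% in propranolol libraries. The difference was -6.02 points (exact permutation test, two-sided, p = 0.33, the smallest that 2 libraries against 2 allow), and with the GC trend removed it turned to 4.65 points. Of the summed TPM of Prkar1a, Prkar2a and Prkar2b, Prkar1a took 83.9% and 83.0% in control and 85.1% and 86.0% in propranolol libraries. This difference of 2.08 points (exact permutation p = 0.33) was 3.08 points with the GC trend removed. The sum leaves out Prkar1b, a regulatory subunit gene of the pathway lists, at a mean of 18.7 TPM in control and 16.3 TPM in propranolol libraries. Its mean CPM was 21.5 and 22.1 (log2 fold change 0.045, edgeR adjusted p 0.831). Among Pde4a, Pde4b and Pde4d, the share of Pde4b was 54.9% and 50.5% in control and 51.2% and 44.8% in propranolol libraries. The groups overlapped (exact permutation p = 0.667), and the difference of -4.63 points became 5.80 points with the GC trend removed. Leaving out each library in turn, it ran from -7.84 to -1.42 points. In each library Prkar1a thus held at least 83.0% of the TPM of Prkar1a, Prkar2a and Prkar2b. Pde4d held between 5.13% and 8.99% of the TPM of Pde4a, Pde4b and Pde4d.

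**Figure D4:**
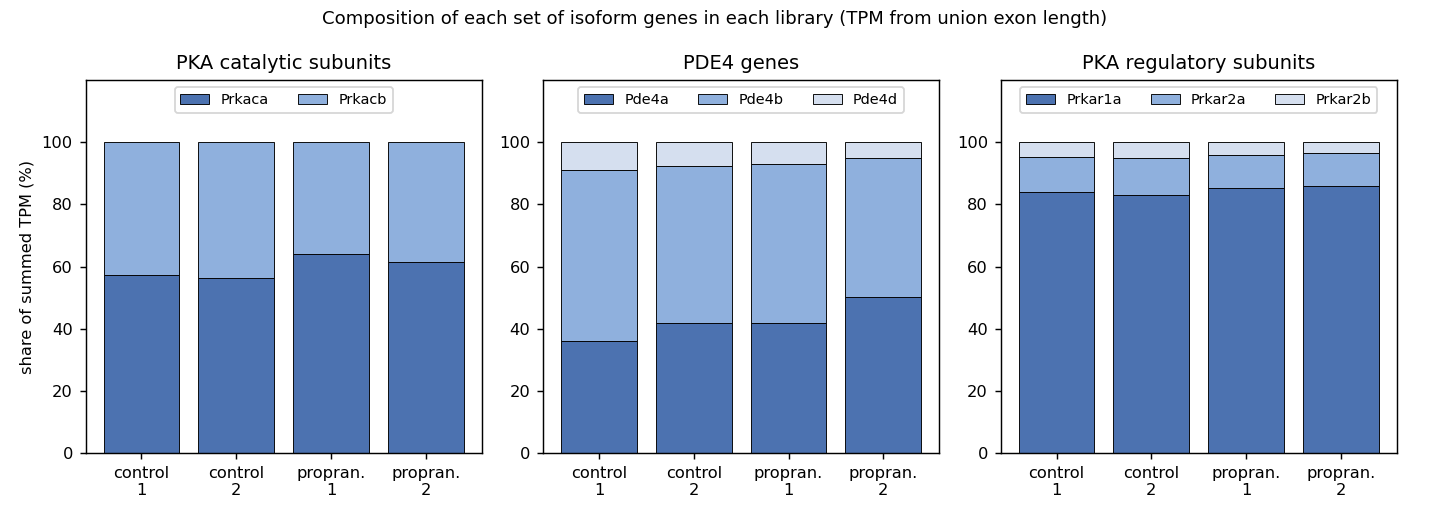
Share of summed TPM in percent (y axis) of each gene within 3 sets, in each of the 4 libraries (x axis). The sets are the catalytic subunits, the PDE4 genes Pde4a, Pde4b and Pde4d, and the regulatory subunits Prkar1a, Prkar2a and Prkar2b, without Prkar1b. The bars show Prkacb between 35.9% and 43.7% of the catalytic TPM and Prkar1a between 83.0% and 86.0% of the TPM of its set.

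The remaining genes of the pathway were taken from lists by function, 70 genes of which 44 were tested. Of these, 12 were changed (27.3%, beside 27.8% of all tested genes), 5 of them higher and 7 of them lower. The median of the 44 was -0.12 on the log2 scale. With the GC trend removed 3 were changed, Gnai2 higher and Adcy6 and Gnas lower, beside 12.6% of all tested genes. In that fit 24.1% of all tested genes passed at any fold. Among the PKA inhibitors and the other PKA genes, 1 of 4 was higher and 1 lower. Pkig, an inhibitor that binds the free catalytic subunit, was the most abundant of the list by TPM. It was at 66.1 and 70.3 CPM in control and at 103 and 113 CPM in propranolol libraries (log2 fold change 0.66 ± 0.11, edgeR adjusted p 0.000985). With the GC trend removed Pkig passed below 1.5-fold (0.39, adjusted p 0.0186). The inhibitor Pkib moved the other way, from 26.4 and 23.6 CPM to 17.3 and 14.7 CPM (-0.63, adjusted p 0.0082), but its sign turned with the GC trend removed (0.30). The inhibitors thus differed in direction as deposited. Prkx, a catalytic subunit relative named here after its values were seen, was 1.48-fold lower (adjusted p 0.00328), below the fold threshold. With the GC trend removed its log2 fold change was -0.24 and did not pass (adjusted p 0.129).

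Of 12 tested A-kinase anchoring proteins, which tether the regulatory subunits, 0 were higher and 3 lower, beside 12.2% and 15.6% of all tested genes. Akap9, which anchors PKA at the centrosome and Golgi, was at 65.2 and 75.1 CPM in control and at 39.9 and 39.2 CPM in propranolol libraries (log2 fold change -0.83 ± 0.12, edgeR adjusted p 0.000532). With the GC trend removed it passed below 1.5-fold (-0.43, adjusted p 0.023). Akap11 had a log2 fold change of -0.70 (adjusted p 0.00137), which came to -0.04 (adjusted p 0.840) with the GC trend removed, and the low gene Akap17b one of -1.08 (adjusted p 0.0367). Akap13, the most abundant by TPM, was at 313 and 310 CPM in control and at 324 and 354 CPM in propranolol libraries and did not pass (adjusted p 0.343). Akap4 had 0 counts in all libraries, and with the GC trend removed 0 of the 12 were changed, beside 12.6% of all tested genes. None of the 6 other cAMP phosphodiesterases tested was changed, beside 27.8% of all tested genes, and 2 passed with less than 1.5-fold, beside 42.2% passing at any fold. Pde8a, the most abundant of them by TPM, was at 38.0 and 40.3 CPM in control and at 47.9 and 50.2 CPM in propranolol libraries (log2 fold change 0.32, adjusted p 0.0447), the opposite sign to Pde3b and Pde7a. With the GC trend removed Pde8a (0.38, adjusted p 0.0295) and Pde7b (0.55, adjusted p 0.0285) passed below 1.5-fold. Of the genes listed with the cGMP phosphodiesterases 2 were tested, and 0 passed. Pde6d, the more abundant, which encodes a prenyl-binding subunit without catalytic activity, was at -0.33 (adjusted p 0.0982). With the GC trend removed Pde6d passed below 1.5-fold (-0.47, adjusted p 0.0463). Pde6c had 0 counts in all libraries.

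Upstream of PKA, 3 of 6 tested adenylyl cyclases were higher and 1 lower, beside 12.2% and 15.6% of all tested genes. With the GC trend removed 0 were higher and 1 lower, though Adcy7 still passed below 1.5-fold (log2 fold change 0.45, edgeR adjusted p 0.0187). Adcy7, a cyclase known from blood cells and the most abundant of the list by TPM, was at 350 and 405 CPM in control and at 526 and 631 CPM in propranolol libraries (log2 fold change 0.61 ± 0.12, edgeR adjusted p 0.00235). Adcy9 (0.62, adjusted p 0.0122) and Adcy3 (0.66, adjusted p 0.0112) were also higher. Adcy6 was lower, from 12.1 and 9.53 CPM to 5.80 and 6.61 CPM (-0.80, adjusted p 0.0165). Adcy3 shares 22.09% of its exon bases with Cenpo and Adcy6 shares 8.92% with an antisense gene, and the counting parameters given in the methods, -p and -t exon, name no option for strand or overlap. By default featureCounts ignores strand and leaves out fragments on exons of more than 1 gene, so the levels of these genes are uncertain. Of 5 tested G protein alpha subunits of the stimulatory and inhibitory classes, 1 was higher and 1 lower. Gnai2, an inhibitory subunit and the most abundant by TPM, was at 1180 and 1110 CPM in control and at 2140 and 2200 CPM in propranolol libraries (0.92 ± 0.09, adjusted p 0.000103). Gnas, the stimulatory subunit, was lower at 25.0 and 18.2 CPM in control and 11.8 and 14.4 CPM in propranolol libraries (-0.72 ± 0.19, adjusted p 0.0133). Of its exon bases 13.13% are shared with Gm20721 and 8.83% with Nespas, both on the opposite strand, so its level is uncertain.

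Downstream, Rapgef3 (EPAC1), which cAMP activates apart from PKA, was the only other cAMP effector tested, at 1.69 and 0.837 CPM in control and 0.495 and 0.786 CPM in propranolol libraries (edgeR adjusted p 0.226). Of 8 genes of the CREB family and its coactivators, 0 were higher and 1 lower, and 3 more passed below 1.5-fold. Of all tested genes 27.8% were changed and 42.2% passed at any fold. Creb1, which PKA phosphorylates, was at 70.6 and 73.3 CPM in control and at 44.8 and 47.0 CPM in propranolol libraries (log2 fold change -0.65 ± 0.11, adjusted p 0.00116), and its sign turned with the GC trend removed (0.27). Atf1, its relative and the most abundant by TPM, did not pass (-0.13, adjusted p 0.342, and 0.23 with the GC trend removed). Pkig, Akap9, Akap11, Gnai2 and Creb1 were changed also without each library in turn, and the other 7 of the 12 were not in at least 1 of these fits. Pkib and Gnas were lost without control replicate 1, for example, and Akap17b in each of the 4 fits, where its log2 fold change stayed between -1.08 and -1.035 and its adjusted p reached 0.122.

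The sort was checked against lists of cell type markers, read beside 27.8% of all tested genes changed, 12.2% higher and 15.6% lower, and 12.6% changed with the GC trend removed. Macrophage markers summed to 19600 and 18800 CPM in control and to 24600 and 22400 CPM in propranolol libraries, led by Lyz2. Of the 10, 1 was changed, Csf1r, which was higher. Another 5 passed below 1.5-fold, beside 42.2% of all tested genes passing at any fold. All 12 T cell markers were lower, and their sum was 306 and 355 CPM in control and 146 and 75.0 CPM in propranolol libraries. Trac was the most abundant by TPM and Cd8a by CPM. All 6 NK cell markers were lower as well, from sums of 98.7 and 95.6 CPM to 30.6 and 16.0 CPM. Gzma was the most abundant of them by TPM and Klrk1 by CPM. In bulk samples, fewer cells of a type and less RNA per cell cannot be told apart. Of 9 fibroblast or tumor cell markers 7 were lower, with sums of 2860 and 1130 CPM in control and of 666 and 703 CPM in propranolol libraries. Col1a1 was the most abundant of them by TPM and Col3a1 by CPM. Thy1, among the 7, was at 82.5 and 86.1 CPM in control and at 45.9 and 25.9 CPM in propranolol libraries. It was lowest in propranolol replicate 2, as was the T cell sum, so it may not stand for fibroblasts or tumor cells. Of 8 tested neutrophil markers 5 were higher, at sums of 182 and 199 CPM in control and 357 and 383 CPM in propranolol libraries. S100a9 was the most abundant of them by TPM and Csf3r by CPM. Csf3r, at 97.0 and 130 CPM in control and 154 and 180 CPM in propranolol libraries, passed below 1.5-fold (log2 fold change 0.56, edgeR adjusted p 0.0105). Of 6 dendritic cell markers, led by Ccr7, 2 were lower, with sums of 26.8 and 28.0 CPM and then 17.4 and 16.2 CPM. B cell markers, led by Ighm, summed to 159 and 183 CPM and then to 184 and 196 CPM, with 1 of 3 tested higher and 1 lower. Endothelial markers, led by Pecam1, summed to 44.6 and 41.9 CPM and then to 57.0 and 50.7 CPM, with 1 of 4 higher. With the GC trend removed, 12 T cell, 4 NK cell, 6 fibroblast or tumor cell and 1 dendritic cell markers were lower. In that fit 6 neutrophil markers and 1 macrophage marker were higher, and 0 B cell and 0 endothelial markers were changed. The macrophage marker was then Mrc1 (log2 fold change 0.85, edgeR adjusted p 0.000715), while Csf1r came to 0.32, below 1.5-fold. Of the mast cell markers Fcer1a had 0 counts in all libraries, and Kit, lower in both fits, was the only one tested. The sums of 8.63 and 8.73 CPM and then 3.82 and 5.24 CPM were mostly Kit, at 8.23 and 8.57 CPM and then 3.30 and 4.06 CPM. Tpsb2, Mcpt4 and Cpa3 had at most 12 counts in a library and higher mean CPM in propranolol libraries. Kit alone thus does not measure mast cells here.

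Changed markers of T cells, NK cells, fibroblasts or tumor cells and dendritic cells, and Kit, thus moved in the direction of Pde3b and Pde7a. With the GC trend removed, all 12 T cell markers were lower, and Pde3b (log2 fold change -0.26) and Pde7a (-0.04) did not pass. In the propranolol libraries, the T cell sum was 146 and 75.0 CPM and the NK cell sum 30.6 and 16.0 CPM. Pde3b was at 56.3 and 57.6 CPM there and Pde7a at 16.7 and 20.4 CPM. In the control libraries, the T cell sum was 306 and 355 CPM and the NK cell sum 98.7 and 95.6 CPM. Pde7a was at 25.6 and 26.5 CPM in these. Between the control libraries, the fibroblast or tumor cell sum was 2860 and 1130 CPM and Pde3b was 102 and 87.2 CPM, both higher in replicate 1. In the propranolol libraries that sum was 666 and 703 CPM, beside 56.3 and 57.6 CPM for Pde3b. The sort for CD45+ and then CD11b+F4/80+ cells is meant to leave such cells out, and their part in the levels of Pde3b and Pde7a was not tested.

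**Figure D5:**
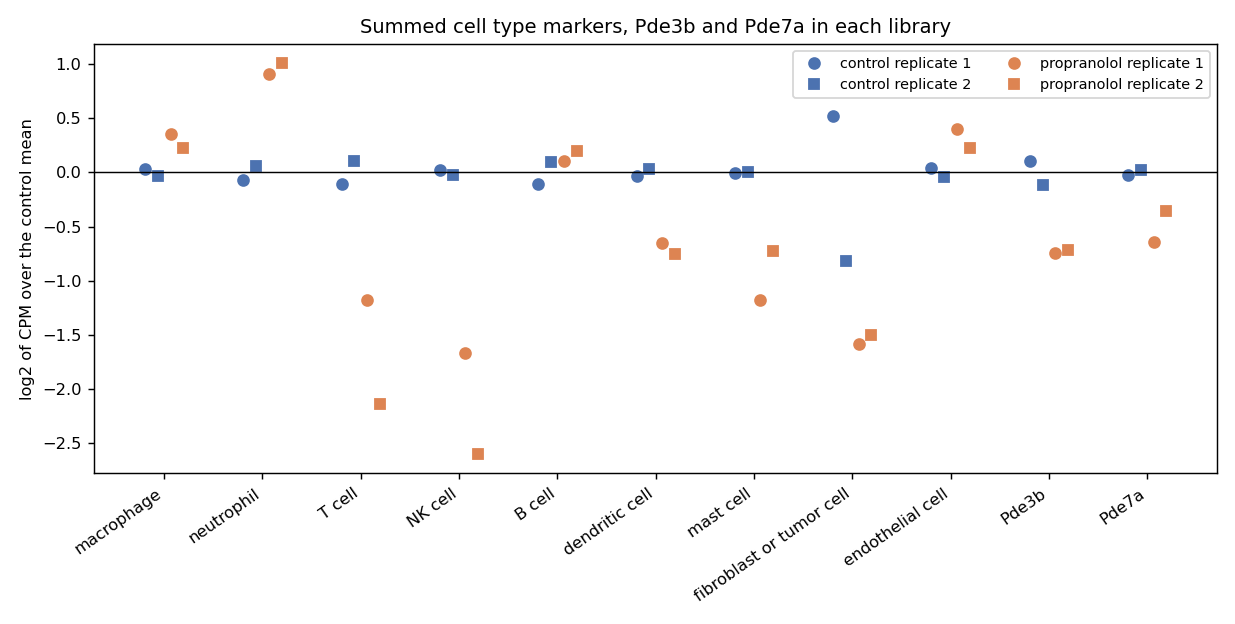
log2 ratio of each library to the control mean (y axis) for the summed CPM of each cell type marker list and for Pde3b and Pde7a (x axis). Blue is control, orange is propranolol, circles are replicate 1 and squares are replicate 2. The propranolol libraries differ from each other for T cell markers, at 146 and 75.0 CPM. They lie together for fibroblast or tumor cell markers, at 666 and 703 CPM, and for Pde3b, at 56.3 and 57.6 CPM.

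The genes most like Pde3b and Pde4a across the 4 libraries, the lowest and the highest of the 10 by fold change, were found by Euclidean distance in log2 CPM centred per gene, among genes of similar level. For Pde3b these were Acer3 (distance 0.0204), Spred1 (0.0403) and Slmap (0.0479) of 3803 genes. Their log2 fold changes were -0.75, -0.73 and -0.69. For Pde4a they were Brpf3 (0.0584), Atg16l2 (0.0649) and Rusc2 (0.0856) of 4352 genes, with log2 fold changes of 0.36, 0.41 and 0.36, none of which passed the edgeR test. The points are 4 libraries only, so these distances are a description.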

How the data were processed

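RNA sequencing counts of 2 control and 2 propranolol libraries were analysed. The values deposited by the authors are counts of fragments per gene, whole numbers without normalization, with 0 columns left unused. Per the labels and methods, reads were aligned to mm10 with STAR 2.7.1a, filtered to MAPQ above 30 with SAMtools 1.9, and counted on exons of GENCODE genes with featureCounts 1.6.4. The annotation release and a strand option are not given in the sources used here.

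Identifiers were matched to GENCODE M21 on GRCm38. Counts were normalized with TMM factors (1.076 and 1.092 in control, 0.914 and 0.9308 in propranolol libraries), filtered with filterByExpr at a minimum count of 10, and compared with the edgeR 4.0.16 quasi-likelihood test (R 4.3.3) over all 14688 genes, with no covariates. The steps were tested on simulated data. Standard errors came from the coefficient and the F statistic. TPM was computed from the counts and exon lengths, without TMM factors. For the GC correction, each library's trend on GC content (a natural spline of 5 degrees of freedom) was removed through offsets. Alternatives included DESeq2 1.42.0 and limma-voom (limma 3.58.1).

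The genes and lists were chosen with earlier results of these data known. Besides the 10 genes, those named are every changed gene and the gene of highest TPM of each pathway list. For each cell type they are the most abundant marker by TPM and by CPM and the markers at 0 counts. The 3 genes nearest to the highest and the lowest of the 10 were named too. Prkx, Prkar1b, Akap4, Pde6c, Pde7b, Csf1r, Mrc1, Thy1, Tpsb2, Mcpt4 and Cpa3 fall outside this rule and were named after their values were seen. The paper's criterion reads 1.5-fold in its results and log2 fold change above 1.5 in its methods. The former was used.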

Additional observations from a re-analysis of the deposited data

How the results depend on the processing

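Pde3b was changed in 10 of 15 alternative fits, among them DESeq2 and limma-voom. It was not with the GC trend removed, alone, with length or with the replicate block, nor by glmTreat against 1.5-fold (adjusted p 0.208), nor without control replicate 1. Of the 10 genes, 0 were changed in each of these fits, though Pde4b passed below 1.5-fold with GC and length removed and, with Prkar1a, in the GC fit with the block (beside 24.3% and 31.9% of all tested genes). There were 0 at a log2 fold change above 1.5, and 2 with no fold threshold. For all tested genes the count of 4084 became 1855, 1849 and 2132 with the GC trend removed (alone, with length, with the block), 1093 by glmTreat, 728 above a log2 fold change of 1.5 and 6204 with no fold threshold. For the pathway lists the count of 12 became 3, 3 and 4 in the GC fits, 1 by glmTreat, 0 above a log2 fold change of 1.5 and 20 with no fold threshold. Leaving out each library gave 0 to 3 of the 10 genes, 7 to 14 pathway genes and 3615 to 4329 of all genes. It gave differences of -7.35 to -4.69 points for the Prkacb share, -7.84 to -1.42 for the Pde4b share and 1.62 to 2.55 for the Prkar1a share. In the GC fit these shares differed by 4.65, 5.80 and 3.08 points. The share of changed genes that were higher was 44.0%, and 60.5% with the GC trend removed, 54.4% without control replicate 1, 35.9% with upper-quartile factors and 8.38% above a log2 fold change of 1.5.

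Among the 10 genes and the 12 changed pathway genes, signs turned as follows, and the cause was not tested. Pde4b was at -0.0575 with upper-quartile factors and at -0.0196 with the stricter filter, and Prkar1a was at 0.0369 without control replicate 1. In the GC fits (alone, with length, with the block), Prkaca was at -0.14, -0.14 and -0.15, Prkacb at 0.13 in all 3, Prkar1a at 0.24, 0.22 and 0.24, Pkib at 0.30, 0.33 and 0.29, and Creb1 at 0.27, 0.31 and 0.27. Prkar2b was at 0.0005 in the first of them.

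Replicate numbers are shared between the groups, but nothing in the labels ties them, and the correlation of deviations of same-numbered libraries was 0.169. Below 1.5-fold, Prkacb (0.0386), Prkar2a (0.0325) and Prkar2b (0.0446) had an edgeR adjusted p under 0.05 with upper-quartile factors, Prkar2a (0.0459) with the stricter filter and Pde4a (0.0184) with no filter. In these fits, in that order, 41.4%, 48.5% and 23.1% of all tested genes passed at any fold. With the replicate block 4362 of all genes, 13 pathway genes and 1 of the 10 genes, Pde3b, were changed, and Prkacb, Prkar2a, Prkar2b, Pde4a and Pde7a passed with less than 1.5-fold, beside 48.4% of all tested genes at any fold. Where 1 library stands for a group, its spread was taken from the other group. Counts of 106 to 295 for Pde4d limit what could be seen of it.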
